A study of Homo sapiens with 18 samples.

Results

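Chromatin accessibility was described around 5 genes long known as targets of the estrogen receptor in breast cancer cells: TFF1, TFF3, MYB, RARA and AGR2. The measured units were the accessible regions of the series' count table that overlap 4 hg19 windows set around these genes. The window of TFF1 and TFF3 spans chromosome 21 from 43.68 to 43.84 Mb and holds 16 regions, that of MYB spans chromosome 6 from 135.45 to 135.6 Mb and holds 16, that of RARA spans chromosome 17 from 38.43 to 38.56 Mb and holds 17, and that of AGR2 spans chromosome 7 from 16.78 to 16.9 Mb and holds 11. Together these are 60 of the 132604 regions in the table, or 0.0452%. Within a window, membership rests on position alone and used no measured value. The windows and genes themselves were chosen with earlier results of these data known. Regions are numbered within their window from the lower coordinate upwards.

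The cells were T47D, an established human breast carcinoma line that carries both the estrogen and the progesterone receptor. All 6 groups shared the same handling before treatment, with phenol red-free medium, charcoal-stripped serum and a period of serum starvation, and no estrogen is named among the additions. The groups were the DMSO vehicle, 0.1 nM R5020 and 10 nM R5020, each given for 6 h and for 18 h, with 3 libraries each and 18 in all. R5020 (promegestone) is a synthetic progestin, and one cell line stands for all conditions. The assay was Omni-ATAC-seq, in which the Tn5 transposase inserts sequencing adapters into open DNA, so that a region's read count follows how open it is. In such bulk samples, fewer cells with an open region and a less open region in every cell cannot be told apart. The cell type was not checked against marker genes, because the regions carry no gene names in hg19.

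As background, the estrogen receptor is a ligand-activated transcription factor that binds estrogen response elements, inverted repeats of GGTCA, mostly at enhancers that the forkhead factor FOXA1 keeps open. The progesterone receptor binds a different inverted repeat and, when both receptors are present and a progestin is given, it can associate with the estrogen receptor and change where that receptor binds. TFF1 and TFF3 encode small secreted trefoil peptides that protect mucosal surfaces, MYB encodes a transcription factor of proliferating progenitor cells, RARA encodes retinoic acid receptor alpha, and AGR2 encodes a protein disulfide isomerase of the endoplasmic reticulum. In RefSeq's annotation of GRCh38.p14 the genes next to these are ABCG1, TFF2, TMPRSS3 and UBASH3A by the trefoil genes, HBS1L and AHI1 by MYB, CDC6, GJD3 and TOP2A by RARA, and TSPAN13 and AGR3 by AGR2. No hg19 annotation was used, so it was not determined which region lies in or near which gene.

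RefSeq's promoter table for GRCh38.p14 had entries for MYB (1 start), RARA (3 starts) and AGR2 (1 start), each of 300 bases; TFF1 and TFF3 were not matched. The promoter of the first RARA start is shown because it holds 3 copies of the arm of the estrogen response element, GGTCA, read on either strand, which are in capitals. They begin 229, 159 and 92 bases before the annotated start. The AGR2 promoter, at chr7:16804950-16805249 on the minus strand, is shown beside the RARA one, at chr17:40308930-40309229 on the plus strand, as a promoter without GGTCA.
RARA: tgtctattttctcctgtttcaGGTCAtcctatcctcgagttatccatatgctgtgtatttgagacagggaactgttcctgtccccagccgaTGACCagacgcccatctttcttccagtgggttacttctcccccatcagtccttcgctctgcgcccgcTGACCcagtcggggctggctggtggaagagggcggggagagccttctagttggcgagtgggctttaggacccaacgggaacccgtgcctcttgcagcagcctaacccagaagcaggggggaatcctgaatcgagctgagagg
AGR2: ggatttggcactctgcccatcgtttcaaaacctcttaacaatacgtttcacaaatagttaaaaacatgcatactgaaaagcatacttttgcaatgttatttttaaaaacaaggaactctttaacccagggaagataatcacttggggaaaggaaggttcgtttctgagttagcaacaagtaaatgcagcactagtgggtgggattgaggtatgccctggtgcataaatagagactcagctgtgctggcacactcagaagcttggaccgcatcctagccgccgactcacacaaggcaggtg
Of all 35116 promoters of this length in the table, 37.4% hold GGTCA on either strand, against 1 of the 5 here. The full palindrome GGTCANNNTGACC was in 0 of the 5 promoters and in 0.057% of all, and since GGTCA is its arm, each match of it also counts for GGTCA. The progesterone and glucocorticoid receptor motif GNACANNNTGTNC was in 0 of the 5 and in 0.39% of all. The forkhead motif TGTTTAC was in the MYB promoter and in 3.42% of all, and the GATA motif AGATAA was in the AGR2 promoter and in 10.3% of all. The steroid receptor hexamer TGTTCT, the AP-1 motif TGANTCA and the TATA box TATAAA were each in 0 of the 5, and in 14.8%, 7.71% and 11.53% of all. Every motif was searched on both strands. These matches describe letters, not binding sites, and because the builds differ it was not determined whether a counted region covers any of these promoters.

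Levels are given in CPM, a region's reads divided by its library's TMM-scaled total, from edgeR. Library totals over all regions ran from 8756311 to 39984217 reads. The share of reads in the 5000 strongest regions was 39.1% ± 2.39 in vehicle, 38.1% ± 1.37 at 0.1 nM and 34.1% ± 0.559 at 10 nM at 6 h, and 38.2% ± 2.02 in vehicle, 36.4% ± 3.29 at 0.1 nM and 33.6% ± 3.45 at 10 nM at 18 h (SD, n = 3 each). Its mean was thus lower with 10 nM at both times. Of the 22 window regions averaging at least 5 CPM, 10 were called lower and 2 higher with 10 nM at each time. Among all regions of that level 13% were called lower and 12.3% higher at 6 h, and 12.8% lower and 9.56% higher at 18 h. What part the share of reads in the strongest regions had in those calls was not tested beyond the covariate fit given below. Among the 18 h libraries, replicate 3 of the 0.1 nM group and replicate 1 of the 10 nM group stood farthest from the other libraries of their groups on the second principal component. The main counts of called regions are therefore also given without both.

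The 4 windows differed in how open they were. RARA was the most open, with a median of 21.7 CPM per kb over its 17 regions, against 6.87 in the TFF1/TFF3 window, 6.45 in the AGR2 window and 6.08 in the MYB window. The median over all regions of the table was 6.12 CPM per kb. Per kb of length, RARA region 2 (chr17:38443650-38444614) was the highest of the 60, with 58.3 CPM per kb, and AGR2 region 1 (chr7:16793030-16794178) had 48.5, TFF1/TFF3 region 8 (chr21:43757957-43758761) 32.9 and MYB region 16 (chr6:135591779-135592711) 17.3. All 60 regions passed the filter on low counts, and 22 of them averaged at least 5 CPM. Below, the strongest region of a window is the one of highest mean CPM, without regard to length.

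With 10 nM R5020 the windows lost accessibility more often than they gained it. At 6 h, 20 of the 60 regions were lower and 6 were higher than with vehicle at an adjusted p under 0.05 (edgeR's quasi-likelihood test, Benjamini-Hochberg over all 132304 tested regions). Over all tested regions 8.42% were called lower and 16.7% higher, so in this fit lower calls were the more frequent in the windows and higher calls in the table. At 18 h, 15 regions were lower and 4 higher, where 7.56% of all regions were called lower and 12.8% higher. The median log2 fold change over the 60 regions was -0.39 at 6 h and -0.43 at 18 h, against -0.05 and 0.01 over all tested regions. Over all tested regions averaging at least 5 CPM it was -0.26 and -0.30, closer to the windows. The 60 regions had a median level of 3.34 CPM, against 2.31 CPM over all regions.

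The balance of calls differed with the level of the regions. Among all regions averaging at least 5 CPM, 13% were called lower and 12.3% higher at 6 h, and 12.8% lower and 9.56% higher at 18 h. Of the 22 members at that level, 10 were lower and 2 higher at each time. Among all regions under 5 CPM, 6.66% were called lower and 18.4% higher at 6 h, and 5.52% lower and 14.1% higher at 18 h. Of the 38 members under it, 10 were lower and 4 higher at 6 h, and 5 were lower and 2 higher at 18 h. Without the 2 libraries that stood apart, 11 of the 22 were lower and 2 higher at 6 h, and 13 lower and 2 higher at 18 h, while of the 38, 11 were lower and 5 higher at 6 h, and 6 lower and 2 higher at 18 h. No shares by level are given for that fit, so the shares above are not its background. Over all regions it called 9.71% lower and 19.1% higher at 6 h, and 15% lower and 11.8% higher at 18 h.

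The counts of lower regions depended on single libraries, in the windows and in the whole table. At 6 h the count in the windows was 13 without 10 nM replicate 2, 13 without 10 nM replicate 3 and 12 without vehicle replicate 2. In those fits 7107, 7011 and 7318 of all regions were lower, against 11143 in the main fit. At 18 h the windows had 9 without 10 nM replicate 2, 8 without vehicle replicate 1 and 8 without vehicle replicate 2, and 9 when the 2 groups were fitted on their own. There, 7714, 6407, 7234 and 6259 of all regions were lower, against 10002 in the main fit. Without the 2 libraries that stood apart, 22 regions were lower and 7 higher at 6 h, and 19 lower and 4 higher at 18 h. Over all regions that fit called 9.71% lower and 19.1% higher at 6 h, but 15% lower and 11.8% higher at 18 h, so at 18 h lower calls were then the more frequent in the whole table as well. Without 10 nM replicate 1 alone, 16 members were lower and 4 higher at 18 h, and 11.5% of all regions were called lower and 10.7% higher. With each library's share of reads in the strongest regions as a covariate, 23 were lower and 6 higher at 6 h, and 18 lower and 4 higher at 18 h. Of all 132304 regions that fit called 15901 lower and 24413 higher at 6 h, and 15160 lower and 19316 higher at 18 h.

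**Figure D1:**
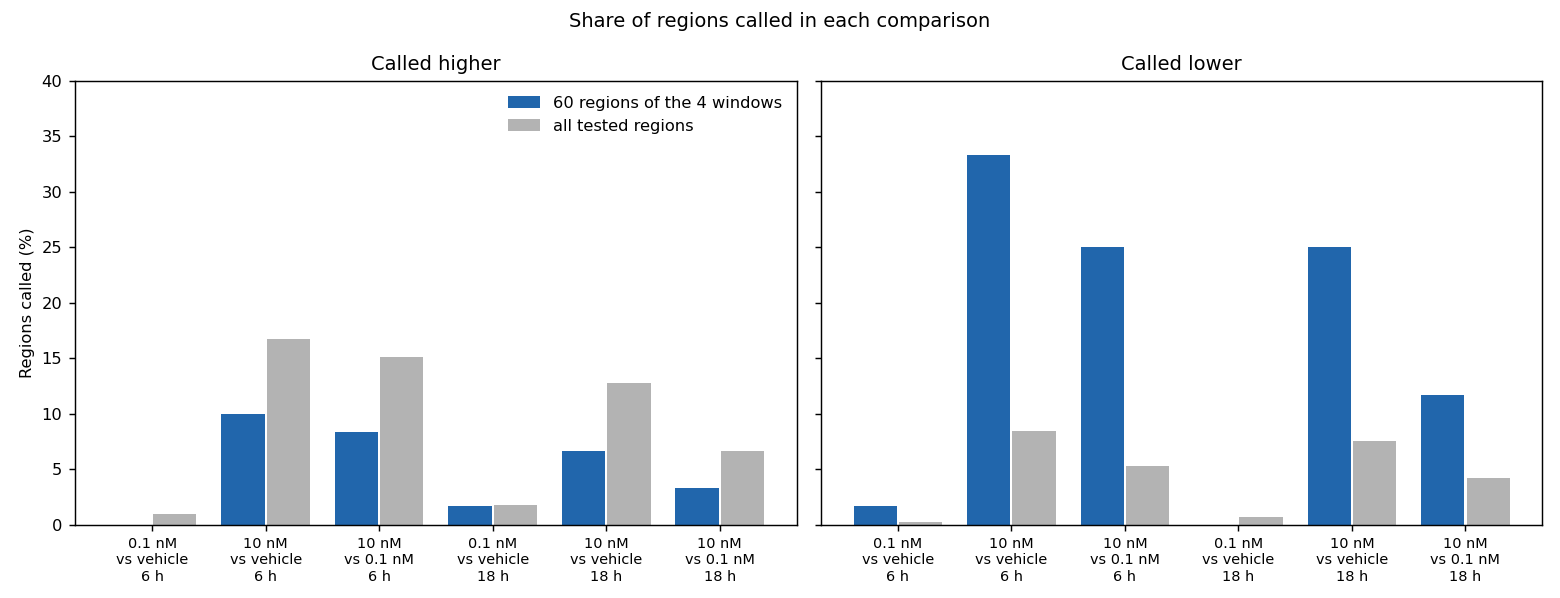
Share of regions called higher (left) and lower (right) at an adjusted p under 0.05 (edgeR), in percent, for the 60 regions of the 4 windows (blue) and all 132304 tested regions (grey), in each comparison of doses and vehicle. With 10 nM against vehicle, 33.3% of the window regions were lower at 6 h and 25% at 18 h, against 8.42% and 7.56% of all regions.

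Few regions were called with the lower dose. With 0.1 nM, 1 region was lower and 0 were higher than with vehicle at 6 h, where 0.241% of all regions were called lower and 0.949% higher. At 18 h, 0 were lower and 1 was higher, where 0.698% of all were called lower and 1.74% higher. At an unadjusted p under 0.05, edgeR had 5 lower and 0 higher regions at 6 h, and 6 lower and 2 higher at 18 h. In either direction together, 8.83% of all regions were under that p at 6 h and 11.6% at 18 h, so the members' 5 and 8 of 60 lay near the background. DESeq2's Wald test made the same numbers of calls as edgeR in both directions at both times. The single call at 6 h, MYB region 7, was lost without any one of the 6 libraries, and that at 18 h, MYB region 16, was lost without 0.1 nM replicate 1 or 2 or any one vehicle library, leaving 0 calls. Without the 2 libraries that stood apart the counts were again 1 lower and 0 higher at 6 h, and 0 lower and 1 higher at 18 h, where 0.426% of all regions were called lower and 1.38% higher at 6 h, and 0.731% lower and 2.48% higher at 18 h.

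Set directly against 0.1 nM, 10 nM gave 15 lower and 5 higher regions at 6 h, where 5.25% of all regions were called lower and 15.1% higher. At 18 h it gave 7 lower and 2 higher, where 4.22% of all were called lower and 6.67% higher. The replicate numbers may pair the libraries in the 18 h comparison, and with the replicate number as a block 11 regions were lower and 2 higher there. That block fit called 7933 lower and 11717 higher of all regions, against 5586 and 8822 in the main fit. Without the 2 libraries that stood apart, 17 were lower and 7 higher at 6 h, and 14 lower and 0 higher at 18 h. Over all regions that fit called 6.38% lower and 17.2% higher at 6 h, and 11.4% lower and 7.07% higher at 18 h, where lower calls were again the more frequent in the table too. The count of 15 at 6 h was 9 without 0.1 nM replicate 3, 8 without 10 nM replicate 1 and 9 without 10 nM replicate 3. In those fits 3760, 3847 and 4333 of all regions were lower, against 6947 in the main fit. The count of 2 higher regions at 18 h was 1 without 0.1 nM replicate 1, 0.1 nM replicate 2 or 10 nM replicate 3, and 0 without 10 nM replicate 1. There, in the same order, 5030, 5619, 7674 and 5384 of all regions were higher, against 8822 in the main fit. This comparison shares its 10 nM libraries with the comparison against vehicle.

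**Figure D2:**
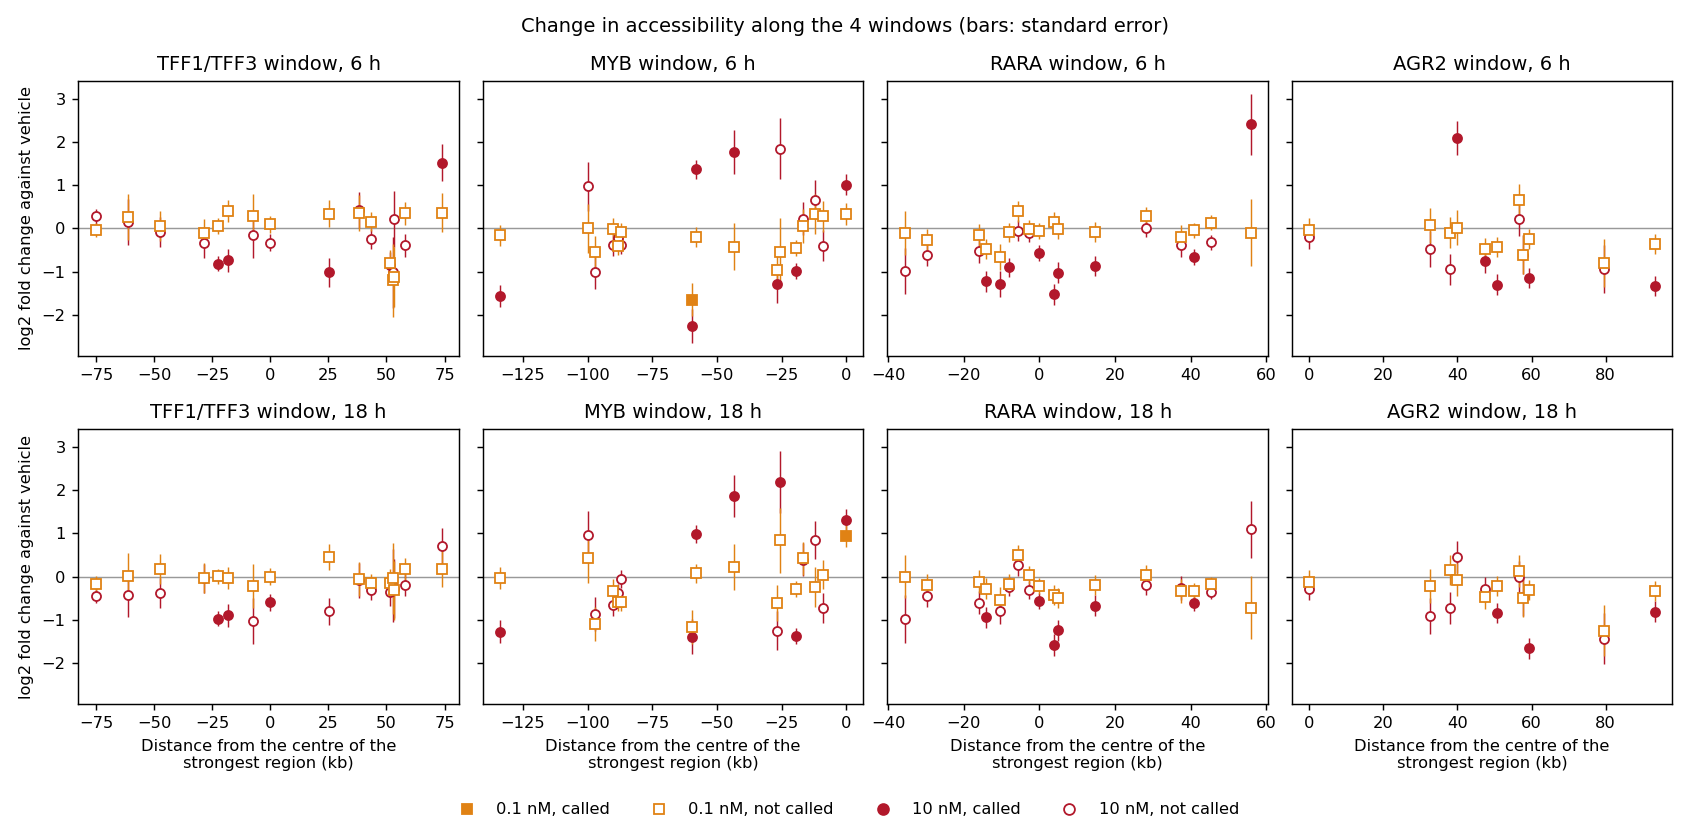
Log2 fold change against vehicle of each region (circles: 10 nM, squares: 0.1 nM, filled: adjusted p under 0.05, bars: standard error), by distance in kb from the centre of the window's strongest region, at 6 h (top) and 18 h (bottom). The 10 nM points lie mostly below 0 in the RARA and AGR2 windows and on both sides of 0 in the MYB window, and most 0.1 nM points lie closer to 0.

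In the TFF1/TFF3 window, 4 of 16 regions fell and 1 rose with 10 nM at 6 h, and 3 fell and 0 rose at 18 h. These are 25% lower and 6.25% higher at 6 h, and 18.75% lower and 0% higher at 18 h. Over all regions 8.42% were lower and 16.7% higher at 6 h, and 7.56% lower and 12.8% higher at 18 h. Without the 2 libraries that stood apart, 4 fell and 1 rose at 6 h, and 4 fell and 0 rose at 18 h. Shares of all regions in that fit were 9.71% lower and 19.1% higher at 6 h, and 15% lower and 11.8% higher at 18 h. The second strongest, TFF1/TFF3 region 5 (chr21:43735358-43735965), fell at both times. It had 22.1, 24.4 and 20.4 CPM in vehicle for 6 h, 21.3, 22.5 and 26.0 CPM at 0.1 nM and 12.1, 10.3 and 15.6 CPM at 10 nM. In the 18 h libraries it had 19.1, 22.4 and 20.7 CPM in vehicle, 22.2, 19.7 and 20.5 CPM at 0.1 nM and 9.70, 12.2 and 9.97 CPM at 10 nM. Every 10 nM library was below every other library at its time, and the 0.1 nM and vehicle libraries overlapped. The log2 fold change of 10 nM against vehicle was -0.81 (SE 0.18, adjusted p = 0.00211, edgeR) at 6 h and -0.97 (SE 0.18, adjusted p = 0.000651) at 18 h. Against 0.1 nM it was -0.87 (SE 0.18, adjusted p = 0.0014) at 6 h and -0.97 (SE 0.18, adjusted p = 0.00138) at 18 h.

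The neighbouring TFF1/TFF3 region 6 (chr21:43740112-43740351) had 3.78, 5.38 and 3.32 CPM in vehicle for 6 h, 6.26, 5.31 and 5.13 CPM at 0.1 nM and 2.67, 2.05 and 2.84 CPM at 10 nM. At 18 h the values were 6.47, 4.94 and 4.66 CPM in vehicle, 6.12, 5.87 and 3.6 CPM at 0.1 nM and 2.36, 3.52 and 2.89 CPM at 10 nM. The 10 nM libraries did not overlap the others. At 6 h its log2 fold change was -1.14 (SE 0.25, adjusted p = 0.00255, edgeR) against 0.1 nM, and -0.74 (SE 0.26, adjusted p = 0.0406) against vehicle. The 18 h change was -0.87 (SE 0.26, adjusted p = 0.0355) against 0.1 nM, and -0.90 (SE 0.26, adjusted p = 0.0172) against vehicle. The calls against vehicle were lost at 6 h without any 10 nM library or without vehicle replicate 1 or 2, and at 18 h without 10 nM replicate 1 or vehicle replicate 1, with adjusted p up to 0.31 and 0.105 over all settings. Both were also lost with the strongest-region share as a covariate and with the compared groups alone. The 18 h call against 0.1 nM was lost without 0.1 nM replicate 1 or 2 or 10 nM replicate 1 or 3, with adjusted p up to 0.188. The covariate and the compared groups alone lost that call too.

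In TFF1/TFF3 region 9 (chr21:43783476-43783716) the 10 nM libraries at 6 h also all lay below the rest. It had 2.00, 2.17 and 2.35 CPM in vehicle for 6 h, 2.87, 3.22 and 2.20 CPM at 0.1 nM and 1.17, 1.16 and 0.907 CPM at 10 nM. At the later time it had 2.41, 2.73 and 3.24 CPM in vehicle, 3.22, 4.63 and 3.6 CPM at 0.1 nM and 0.893, 1.64 and 2.52 CPM at 10 nM, so that 1 of the 10 nM libraries reached the vehicle range. On the log2 scale the change against 0.1 nM was -1.36 (SE 0.32, adjusted p = 0.00387, edgeR) at 6 h and -1.26 (SE 0.32, adjusted p = 0.0141) at 18 h. Against vehicle it was -1.02 (SE 0.33, adjusted p = 0.0264) at 6 h, lost without any one of the 6 libraries, with adjusted p up to 0.123. At 18 h it was -0.81 (SE 0.32, adjusted p = 0.0847), and the call against 0.1 nM at that time was lost without 0.1 nM replicate 2 or 10 nM replicate 1, with adjusted p up to 0.141.

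The strongest region of this window, TFF1/TFF3 region 8, had 30.6, 30.4 and 29.3 CPM in vehicle for 6 h, 32.6, 28.3 and 35.3 CPM at 0.1 nM and 21.2, 23.7 and 27.0 CPM at 10 nM, with the 10 nM libraries below all others. Its change with 10 nM was -0.33 (SE 0.20, adjusted p = 0.251, edgeR) at 6 h. At 18 h it was -0.60 (SE 0.20, adjusted p = 0.039), with 29.1, 27.7 and 25.3 CPM in vehicle, 31.4, 27.7 and 22.8 CPM at 0.1 nM and 23.6, 16.6 and 13.7 CPM at 10 nM, where the 10 nM libraries overlapped 0.1 nM and not vehicle. That call was lost without 10 nM replicate 2 or 3 or any one vehicle library, with adjusted p up to 0.212. It was also lost with the strongest-region share as a covariate and with DESeq2 size factors. Fits with no filter, with the filter of at least 1 CPM in 3 libraries and with the compared groups alone lost it too.

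A pair of weaker regions of the window were called only at 6 h. TFF1/TFF3 region 12 (chr21:43809486-43809961) averaged 4.6 ± 1.503 CPM in vehicle, 2.65 ± 0.521 CPM at 0.1 nM and 2.56 ± 0.561 CPM at 10 nM (SD, n = 3 each), with a log2 fold change for 10 nM of -0.85 (SE 0.31, adjusted p = 0.0489, edgeR). It was lost without any 10 nM library or without vehicle replicate 2 or 3, with adjusted p up to 0.229. TFF1/TFF3 region 16 (chr21:43831989-43832288), the one that rose, had 0.315, 1.07 and 1.38 CPM in vehicle, 1.004, 2.15 and 0.66 CPM at 0.1 nM and 3.14, 3.21 and 1.961 CPM at 10 nM. Its log2 change against vehicle was 1.52 (SE 0.43, adjusted p = 0.0132). That call was lost without vehicle replicate 1 and with the strongest-region share as a covariate, with adjusted p up to 0.0614. Whether either response differed between the times was tested across all regions, and neither was called.

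The MYB window moved in both directions. With 10 nM, 4 of its 16 regions fell and 3 rose at 6 h, and 3 fell and 4 rose at 18 h. At 6 h these are 25% lower and 18.75% higher, against 8.42% and 16.7% of all regions, so the rises lay near the background. At 18 h they are 18.75% lower and 25% higher, against 7.56% and 12.8% of all regions. Leaving out both libraries that stood apart gave 4 that fell and 4 that rose at each time. Of all regions, 9.71% were then lower and 19.1% higher at 6 h, and 15% lower and 11.8% higher at 18 h. A region that fell lay close to a region that rose. MYB region 7 (chr6:135532287-135532773) and MYB region 8 (chr6:135533663-135534569) are 890 bp apart. MYB region 7 had 5.67, 3.06 and 4.45 CPM in vehicle for 6 h, 0.975, 1.43 and 1.76 CPM at 0.1 nM and 0.468, 1.29 and 0.937 CPM at 10 nM. MYB region 8 had 4.10, 4.64 and 3.32 CPM in vehicle for 6 h, 3.28, 3.04 and 4.22 CPM at 0.1 nM and 9.28, 10.9 and 11.3 CPM at 10 nM. So at 6 h MYB region 7 was low with both doses, while MYB region 8 was high with 10 nM alone, and its 0.1 nM libraries overlapped vehicle.

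The fall of MYB region 7 with 10 nM was -2.26 on the log2 scale (SE 0.40, adjusted p = 0.000272, edgeR) at 6 h, the largest fall among the 60 regions at that time. With 0.1 nM it was -1.65 (SE 0.39, adjusted p = 0.0386), a call lost without any one of the 6 libraries, with adjusted p up to 0.236. The difference between the doses at 6 h was -0.61 (SE 0.40, adjusted p = 0.343). At 18 h the region had 2.46, 4.32 and 2.30 CPM in vehicle, 1.90, 0.829 and 1.17 CPM at 0.1 nM and 1.10, 0.981 and 1.40 CPM at 10 nM. Its change with 10 nM was then -1.39 (SE 0.40, adjusted p = 0.0173), lost without 10 nM replicate 2 or vehicle replicate 2 with adjusted p up to 0.124, and with 0.1 nM -1.17 (SE 0.39, adjusted p = 0.158).

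MYB region 8 rose with 10 nM by 1.37 on the log2 scale at 6 h (SE 0.22, adjusted p = 9.04e-05, edgeR) and by 0.99 at 18 h (SE 0.22, adjusted p = 0.0024). Against 0.1 nM the changes were 1.57 (SE 0.22, adjusted p = 2.65e-05) at 6 h and 0.91 (SE 0.22, adjusted p = 0.00862) at 18 h. The 18 h libraries had 3.62, 3.91 and 5.599 CPM in vehicle, 4.55, 4.56 and 4.67 CPM at 0.1 nM and 10.4, 8.01 and 7.27 CPM at 10 nM, and the 10 nM libraries stood above all others. The 18 h call against 0.1 nM was lost without 10 nM replicate 1 and without the 2 libraries that stood apart, with adjusted p up to 0.0678.

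MYB region 10 (chr6:135565075-135565692) and MYB region 11 (chr6:135566518-135566851) are also a close pair, 826 bp apart, but no comparison called both. MYB region 10 averaged 2.76 ± 1.13 CPM in vehicle for 6 h, 1.44 ± 0.116 CPM at 0.1 nM and 1.17 ± 0.564 CPM at 10 nM (SD, n = 3 each). Its fall with 10 nM was -1.29 on the log2 scale (SE 0.42, adjusted p = 0.0299, edgeR), lost without 10 nM replicate 2 or 3 or vehicle replicate 1 or 2 with adjusted p up to 0.241. MYB region 11 had 0, 0.295 and 1.05 CPM in vehicle for 6 h, 0.118, 0.537 and 0.33 CPM at 0.1 nM and 1.36, 2.14 and 1.40 CPM at 10 nM. In reads these were 0, 8 and 13 in vehicle, 4, 9 and 9 at 0.1 nM, and 29, 48 and 48 at 10 nM, so the counts are small. Its change at 6 h was called against 0.1 nM (2.38, SE 0.70, adjusted p = 0.019) and not against vehicle (1.85, SE 0.71, adjusted p = 0.062). At 18 h it was called against vehicle (2.18, SE 0.72, adjusted p = 0.0353), with 1.39, 1.47 and 1.86 CPM with 10 nM, and 0.345, 0.103 and 0.589 CPM with vehicle. The 6 h call was lost without 0.1 nM replicate 1 or 3 or 10 nM replicate 2, and that at 18 h without 10 nM replicate 2 or 3 or vehicle replicate 1 or 2, with adjusted p up to 0.097 and 0.153. Both were also lost with the strongest-region share as a covariate.

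MYB region 9 (chr6:135548582-135548847) lies between these pairs and rose with 10 nM. It had 0.42, 0.184 and 0.729 CPM in vehicle for 6 h, 0.354, 0.358 and 0.22 CPM at 0.1 nM and 1.64, 1.42 and 1.26 CPM at 10 nM. After 18 h it had 0.388, 0.36 and 0.471 CPM in vehicle, 0.322, 0.484 and 0.681 CPM at 0.1 nM and 1.76, 0.90 and 1.77 CPM at 10 nM. The 10 nM libraries were above all others at both times, on 11 to 67 reads each. Against vehicle its log2 fold change was 1.78 (SE 0.51, adjusted p = 0.013, edgeR) at 6 h and 1.86 (SE 0.49, adjusted p = 0.0096) at 18 h. The first was lost without vehicle replicate 2, with adjusted p up to 0.0924. Against 0.1 nM it was 2.20 (SE 0.49, adjusted p = 0.0027) at 6 h and 1.65 (SE 0.50, adjusted p = 0.0369) at 18 h. The 18 h call against 0.1 nM was lost without 0.1 nM replicate 1 or 2 or 10 nM replicate 1 or 3, with adjusted p up to 0.187.

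The strongest region of the window, MYB region 16, rose with 10 nM at both times. It had 11.9, 11.8 and 11.0 CPM in vehicle for 6 h, 14.8, 14.0 and 14.8 CPM at 0.1 nM and 19.96, 22.4 and 27.5 CPM at 10 nM. At 18 h the levels were 8.32, 10.9 and 7.13 CPM in vehicle, 21.1, 19.8 and 9.43 CPM at 0.1 nM and 26.7, 19.5 and 18.7 CPM at 10 nM. At 6 h the 3 groups did not overlap, and at 18 h 0.1 nM replicate 3 lay within the vehicle range while the other two lay within the 10 nM range. The fitted log2 fold change with 10 nM was 1.01 (SE 0.25, adjusted p = 0.00442, edgeR) at 6 h and 1.30 (SE 0.25, adjusted p = 0.000713) at 18 h. With 0.1 nM it was 0.33 (SE 0.25, adjusted p = 0.852) at 6 h and 0.94 (SE 0.25, adjusted p = 0.0475) at 18 h, and that call was lost without 0.1 nM replicate 1 or 2 or any one vehicle library, with adjusted p up to 0.226. The difference between the doses was 0.68 (SE 0.24, adjusted p = 0.0525) at 6 h and 0.36 (SE 0.24, adjusted p = 0.455) at 18 h.

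MYB region 12 (chr6:135572193-135573312) fell with 10 nM, with the 0.1 nM libraries between those of 10 nM and vehicle. It had 19.5, 18.3 and 16.03 CPM in vehicle for 6 h, 11.0, 13.1 and 15.2 CPM at 0.1 nM and 8.24, 9.04 and 9.89 CPM at 10 nM. By 18 h the values were 15.5, 16.1 and 16.6 CPM in vehicle, 13.3, 13.3 and 12.7 CPM at 0.1 nM and 5.49, 5.23 and 7.92 CPM at 10 nM. The 3 groups did not overlap at either time. Against vehicle the log2 fold change of 10 nM was -0.98 (SE 0.18, adjusted p = 0.000415, edgeR) at 6 h and -1.38 (SE 0.19, adjusted p = 2.4e-05) at 18 h. With 0.1 nM it was -0.46 (SE 0.18, adjusted p = 0.379) and -0.29 (SE 0.18, adjusted p = 0.635), neither of which passed.

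MYB region 1 (chr6:135458161-135458679), at the low end of the window, fell with 10 nM. It had 7.46, 5.97 and 5.18 CPM in vehicle for 6 h, 5.49, 4.65 and 6.34 CPM at 0.1 nM and 1.97, 1.83 and 2.43 CPM at 10 nM. The log2 fold change against vehicle was -1.56 (SE 0.26, adjusted p = 0.000134, edgeR) at 6 h and -1.27 (SE 0.27, adjusted p = 0.00159) at 18 h. With 0.1 nM it was -0.16 (SE 0.25, adjusted p = 0.981) at 6 h and -0.03 (SE 0.25, adjusted p = 0.985) at 18 h. For 10 nM against 0.1 nM it was -1.40 (SE 0.25, adjusted p = 0.000458) at 6 h and -1.24 (SE 0.27, adjusted p = 0.00395) at 18 h, and the last was lost without 0.1 nM replicate 1, with adjusted p up to 0.0657. MYB region 4 (chr6:135501670-135502682), the second strongest of the window, passed in none of these comparisons and averaged 14.2 ± 3.29 CPM in vehicle for 6 h, 14.0 ± 1.58 CPM at 0.1 nM and 10.9 ± 1.31 CPM at 10 nM (SD, n = 3 each).

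**Figure D3:**
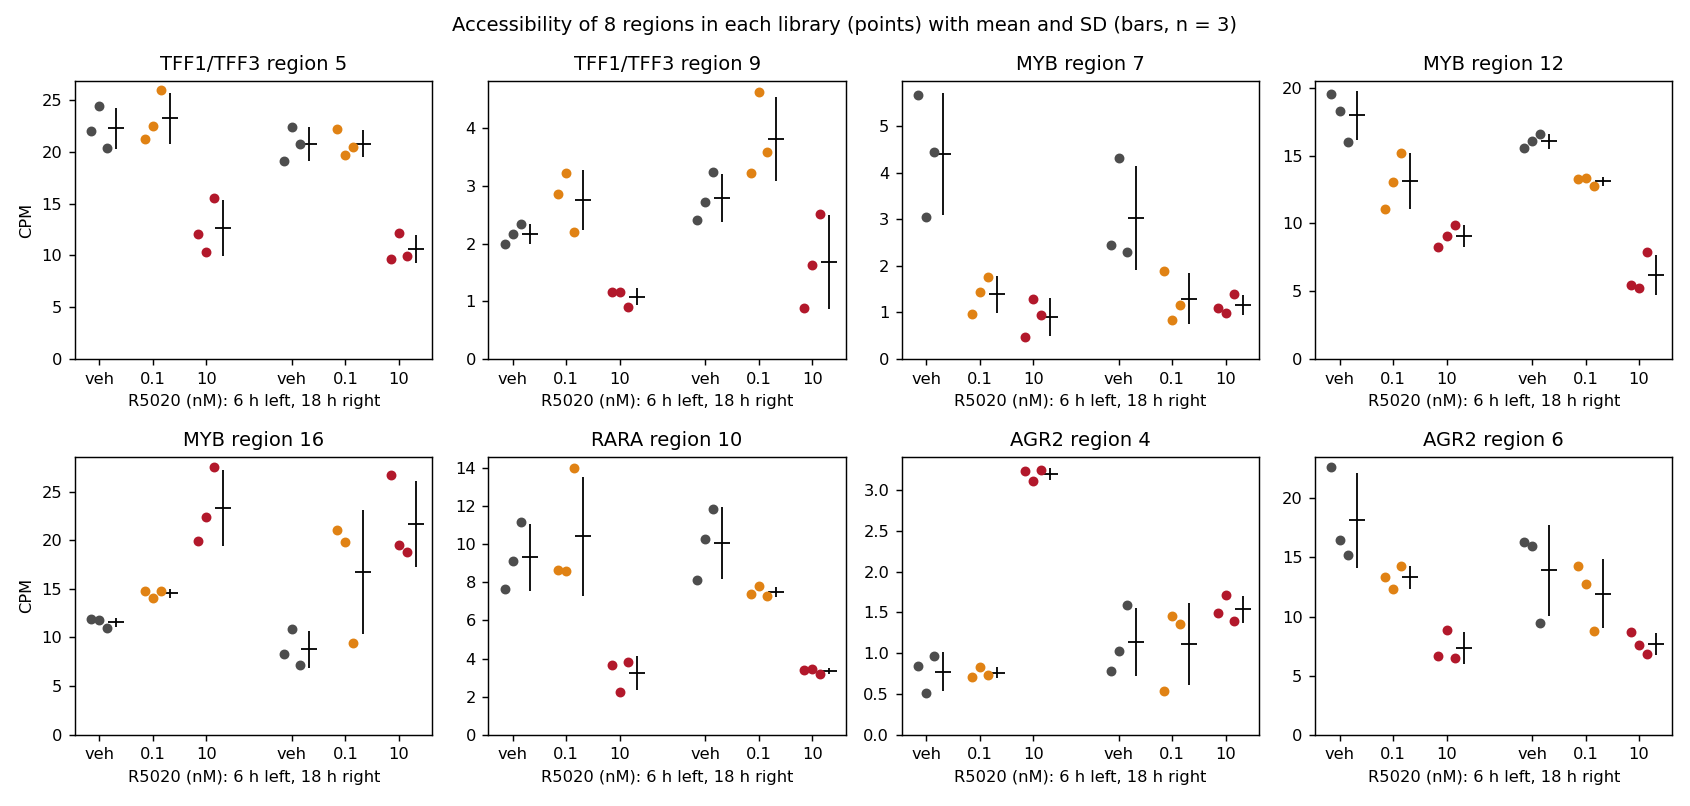
CPM of 8 regions in each library (points: grey vehicle, orange 0.1 nM, red 10 nM) with the mean and SD of the 3 libraries of a group (bars), by dose from vehicle to 10 nM, at 6 h on the left and 18 h on the right of each panel. TFF1/TFF3 region 5 had 10.3 to 15.6 CPM with 10 nM for 6 h against 20.4 to 24.4 CPM with vehicle, while MYB region 16 had 19.96 to 27.5 CPM against 11.0 to 11.9 CPM.

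The RARA window had the most regions that fell. With 10 nM, 8 of 17 fell and 1 rose at 6 h, and 6 fell and 0 rose at 18 h, and 15 of the 17 fold changes were negative at each time. These are 47.1% lower and 5.88% higher at 6 h, against 8.42% and 16.7% of all regions. At 18 h they are 35.3% lower and 0% higher, against 7.56% and 12.8% of all. In this window 11 of the 17 regions averaged at least 5 CPM. Among all regions of that level 13% were lower and 12.3% higher at 6 h, and 12.8% lower and 9.56% higher at 18 h. Over all tested regions 52.7% of the fold changes were negative at 6 h and 49.5% at 18 h. Leaving out the same libraries gave 9 that fell and 1 that rose at 6 h, and 7 and 0 at 18 h. The whole table then had 9.71% lower and 19.1% higher at 6 h, and 15% lower and 11.8% higher at 18 h. The strongest, RARA region 9 (chr17:38472749-38474923), is 2174 bp long. It had 108, 117 and 91.1 CPM in vehicle for 6 h, 99.9, 97.3 and 104 CPM at 0.1 nM and 70.5, 72.8 and 71.0 CPM at 10 nM. In the 18 h libraries it had 103, 110 and 92.9 CPM in vehicle, 94.2, 89.0 and 80.3 CPM at 0.1 nM and 79.6, 68.6 and 59.2 CPM at 10 nM. The 10 nM libraries were below all others at both times, though at 18 h the highest of them, 79.6 CPM, was close to the lowest at 0.1 nM, 80.3 CPM. On the log2 scale the change with 10 nM was -0.56 at both times (SE 0.19, adjusted p = 0.0308 at 6 h and 0.0372 at 18 h, edgeR). The 6 h call was lost without any 10 nM library or vehicle replicate 1 or 2, and the 18 h call without 10 nM replicate 2 or 3 or any one vehicle library, and both with DESeq2 size factors or no filter, with adjusted p up to 0.158 and 0.238.

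The sharpest fall in this window was that of the short RARA region 10 (chr17:38477533-38477728). It had 7.67, 9.13 and 11.2 CPM in vehicle for 6 h, 8.66, 8.59 and 14.0 CPM at 0.1 nM and 3.65, 2.23 and 3.83 CPM at 10 nM. At the later time it had 8.11, 10.3 and 11.8 CPM in vehicle, 7.41, 7.81 and 7.29 CPM at 0.1 nM and 3.42, 3.43 and 3.17 CPM at 10 nM. At both times the 10 nM libraries lay below all others, and at 18 h the 0.1 nM libraries also lay below vehicle. Its log2 change with 10 nM was -1.52 (SE 0.24, adjusted p = 9.19e-05, edgeR) at 6 h and -1.59 (SE 0.25, adjusted p = 9.59e-05) at 18 h. Against 0.1 nM it was -1.68 (SE 0.24, adjusted p = 4.13e-05) and -1.16 (SE 0.25, adjusted p = 0.00381), and 0.1 nM against vehicle gave 0.16 (SE 0.23, adjusted p = 0.98) at 6 h and -0.42 (SE 0.23, adjusted p = 0.552) at 18 h.

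RARA region 11 (chr17:38478627-38478858), 899 bp further on, fell as well. It had 10.3, 16.6 and 14.8 CPM in vehicle for 6 h, 13.5, 14.0 and 13.9 CPM at 0.1 nM and 7.96, 6.23 and 6.53 CPM at 10 nM, with the 10 nM libraries below all others. The 18 h libraries had 13.7, 14.1 and 15.4 CPM in vehicle, 8.41, 11.1 and 11.1 CPM at 0.1 nM and 3.78, 8.34 and 6.53 CPM at 10 nM, with no overlap between the 3 groups. The fitted log2 fold change with 10 nM was -1.02 (SE 0.24, adjusted p = 0.00303, edgeR) at 6 h and -1.24 (SE 0.24, adjusted p = 0.000883) at 18 h.

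On the other side of the strongest region, RARA region 4 (chr17:38459382-38459844) had 3.78, 4.97 and 3.64 CPM in vehicle for 6 h, 3.13, 2.56 and 3.26 CPM at 0.1 nM and 1.69, 1.91 and 1.76 CPM at 10 nM. The 3 groups did not overlap, and its log2 fold change with 10 nM was -1.22 (SE 0.24, adjusted p = 0.000728, edgeR) at 6 h and -0.94 (SE 0.24, adjusted p = 0.0085) at 18 h. RARA region 5 (chr17:38463306-38463657) was lower at 6 h, with a log2 fold change of -1.29 (SE 0.31, adjusted p = 0.0037), with 3.53 ± 0.606 CPM in vehicle, 2.21 ± 0.182 CPM at 0.1 nM and 1.42 ± 0.196 CPM at 10 nM (SD, n = 3 each). At 18 h its change of -0.79 (SE 0.30, adjusted p = 0.0724) did not pass. RARA region 6 (chr17:38465350-38466083), named after its values were seen, had 5.72, 6.54 and 5.94 CPM with 10 nM for 6 h and 8.19, 12.97 and 12.6 CPM with vehicle. After 18 h it had 7.57, 10.9 and 10.2 CPM with 10 nM and 9.74, 12.04 and 11.6 CPM with vehicle, so that the groups overlapped only then. The log2 fold change was -0.90 (SE 0.22, adjusted p = 0.00387) at 6 h and -0.23 (SE 0.21, adjusted p = 0.489) at 18 h, and the difference between the times was 0.67 (SE 0.30, adjusted p = 0.857).

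Towards the high end of the window, RARA region 12 (chr17:38487900-38488895) had 21.2, 33.0 and 28.7 CPM in vehicle for 6 h, 21.1, 32.3 and 24.9 CPM at 0.1 nM and 14.2, 17.6 and 13.6 CPM at 10 nM, with the 10 nM libraries below all others. On the log2 scale the change with 10 nM was -0.87 (SE 0.23, adjusted p = 0.00834, edgeR) at 6 h and -0.67 (SE 0.23, adjusted p = 0.0459) at 18 h. RARA region 15 (chr17:38514480-38515052) averaged 7.85 ± 0.70 CPM in vehicle for 6 h, 7.65 ± 0.626 CPM at 0.1 nM and 4.95 ± 0.363 CPM at 10 nM (SD, n = 3 each), a log2 fold change of -0.67 (SE 0.18, adjusted p = 0.0103) against vehicle, and -0.61 (SE 0.19, adjusted p = 0.0241) at 18 h. Both 18 h calls were lost without 10 nM replicate 1 or 2 or vehicle replicate 1 or 2, that of RARA region 12 also without 10 nM replicate 3, and both without the 2 libraries that stood apart, with adjusted p up to 0.264 and 0.114. At 6 h the call of RARA region 12 was lost without 10 nM replicate 1 or 3 or vehicle replicate 2, and that of RARA region 15 without 10 nM replicate 2 or vehicle replicate 2, with adjusted p up to 0.072 and 0.0741.

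RARA region 17 (chr17:38529653-38529806), of 153 bp, was the only region of this window that rose. It had 0.21, 0.331 and 0.405 CPM in vehicle for 6 h, 0.295, 0.179 and 0.403 CPM at 0.1 nM and 2.06, 1.69 and 1.46 CPM at 10 nM. In reads these were 44, 38 and 50 with 10 nM, and 2, 9 and 5 with vehicle. Its log2 change against vehicle was 2.41 (SE 0.71, adjusted p = 0.0167, edgeR), the largest rise among the 60 regions at 6 h, and it was lost without vehicle replicate 1 or 2 with adjusted p up to 0.0654. At 18 h the levels were 0.302, 0.154 and 1.36 CPM in vehicle, 0.322, 0.691 and 0 CPM at 0.1 nM and 1.13, 1.55 and 1.12 CPM at 10 nM, where 1 vehicle library reached the 10 nM range, and the change of 1.09 (SE 0.67, adjusted p = 0.274) did not pass.

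The second strongest region of the window, RARA region 2, had 104, 65.4 and 56.4 CPM in vehicle for 6 h, 66.9, 53.9 and 65.5 CPM at 0.1 nM and 46.4, 50.3 and 50.6 CPM at 10 nM. The 10 nM libraries were below all others, but vehicle spread widely, and the log2 fold change of -0.61 (SE 0.25, adjusted p = 0.0786, edgeR) did not pass. At 18 h it was -0.45 (SE 0.25, adjusted p = 0.224).

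In the AGR2 window 4 of 11 regions fell and 1 rose with 10 nM at 6 h, and 3 fell and 0 rose at 18 h. These are 36.4% lower and 9.09% higher at 6 h, against 8.42% and 16.7% of all regions. At 18 h they are 27.3% lower and 0% higher, against 7.56% and 12.8% of all. Here the fit without the same libraries gave 5 that fell and 1 that rose at 6 h, and 4 and 0 at 18 h. Its shares over all regions were 9.71% lower and 19.1% higher at 6 h, and 15% lower and 11.8% higher at 18 h. The strongest, AGR2 region 1, passed in no comparison. It had 73.5, 67.3 and 45.3 CPM in vehicle for 6 h, 66.7, 53.0 and 62.2 CPM at 0.1 nM and 54.5, 55.6 and 52.6 CPM at 10 nM. By 18 h the values were 67.4, 61.6 and 42.7 CPM in vehicle, 67.4, 52.9 and 37.6 CPM at 0.1 nM and 68.4, 39.5 and 33.1 CPM at 10 nM. Within vehicle at 6 h, and within each group at 18 h, the replicates thus lay farther apart than the group means. The log2 fold change of 10 nM against vehicle was -0.19 (SE 0.27, adjusted p = 0.656, edgeR) at 6 h and -0.28 (SE 0.27, adjusted p = 0.514) at 18 h.

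The second strongest, AGR2 region 11 (chr7:16886357-16887523), fell at both times. It had 37.3, 25.5 and 23.6 CPM in vehicle for 6 h, 26.3, 18.7 and 21.7 CPM at 0.1 nM and 11.8, 13.3 and 9.19 CPM at 10 nM. In the 18 h libraries it had 21, 20.6 and 18.4 CPM in vehicle, 19.7, 14.9 and 12.6 CPM at 0.1 nM and 14.8, 9.57 and 9.60 CPM at 10 nM. The 10 nM libraries did not overlap vehicle at either time, and they overlapped 0.1 nM at 18 h. The fitted log2 fold change with 10 nM was -1.33 (SE 0.24, adjusted p = 0.000261, edgeR) at 6 h and -0.81 (SE 0.24, adjusted p = 0.018) at 18 h. The second call was lost without 10 nM replicate 2 or 3 or vehicle replicate 1 or 2, and with the share of reads in the strongest regions as a covariate, with adjusted p up to 0.094.

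AGR2 region 6 (chr7:16843512-16845030) had 22.7, 16.5 and 15.2 CPM in vehicle for 6 h, 13.4, 12.3 and 14.3 CPM at 0.1 nM and 6.65, 8.90 and 6.50 CPM at 10 nM. The 3 groups did not overlap at 6 h. The log2 fold change with 10 nM was -1.30 (SE 0.24, adjusted p = 0.000343, edgeR) at 6 h and -0.85 (SE 0.24, adjusted p = 0.0138) at 18 h, and with 0.1 nM -0.44 (SE 0.23, adjusted p = 0.646) at 6 h. The 18 h call was lost without 10 nM replicate 3 or vehicle replicate 1 or 2 and with the same covariate, with adjusted p up to 0.136.

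AGR2 region 9 (chr7:16852663-16853315) had the largest fall of the 60 regions at 18 h. It had 7.16, 5.30 and 4.83 CPM in vehicle for 18 h, 5.33, 4.15 and 4.37 CPM at 0.1 nM and 2.15, 1.31 and 1.86 CPM at 10 nM. At 6 h it had 7.56, 6.89 and 7.69 CPM in vehicle, 5.52, 4.95 and 8.07 CPM at 0.1 nM and 3.65, 3.03 and 3.31 CPM at 10 nM. At both times the 10 nM libraries were below all others. On the log2 scale the change with 10 nM was -1.14 (SE 0.23, adjusted p = 0.00101, edgeR) at 6 h and -1.66 (SE 0.25, adjusted p = 6.34e-05) at 18 h, and against 0.1 nM -0.90 (SE 0.23, adjusted p = 0.00771) and -1.35 (SE 0.25, adjusted p = 0.00124). The 6 h call against 0.1 nM was lost without 0.1 nM replicate 3 and with the share of reads in the strongest regions as a covariate, with adjusted p up to 0.0983. AGR2 region 5 (chr7:16840859-16841358) was called at 6 h, at -0.76 (SE 0.27, adjusted p = 0.0446), with 4.71 ± 0.646 CPM in vehicle, 3.34 ± 0.0582 CPM at 0.1 nM and 2.77 ± 0.657 CPM at 10 nM (SD, n = 3 each). That call was lost without any one of the 6 libraries and with the same covariate, with adjusted p up to 0.311.

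The 1 region of this window that rose, AGR2 region 4 (chr7:16833385-16833845), did so at 6 h with 10 nM. It had 0.84, 0.516 and 0.971 CPM in vehicle, 0.709, 0.835 and 0.733 CPM at 0.1 nM and 3.23, 3.12 and 3.25 CPM at 10 nM, on 69, 70 and 111 reads with 10 nM and 8, 14 and 12 with vehicle. At the later time it had 0.776, 1.03 and 1.59 CPM in vehicle, 0.537, 1.45 and 1.36 CPM at 0.1 nM and 1.498, 1.72 and 1.40 CPM at 10 nM, and the groups overlapped. Its log2 change against vehicle was 2.09 (SE 0.39, adjusted p = 0.000466, edgeR) at 6 h and 0.45 (SE 0.38, adjusted p = 0.438) at 18 h. The difference between the times was -1.64 (SE 0.54), which had the smallest adjusted p of the 60 regions, 0.567, and did not pass.

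**Figure D4:**
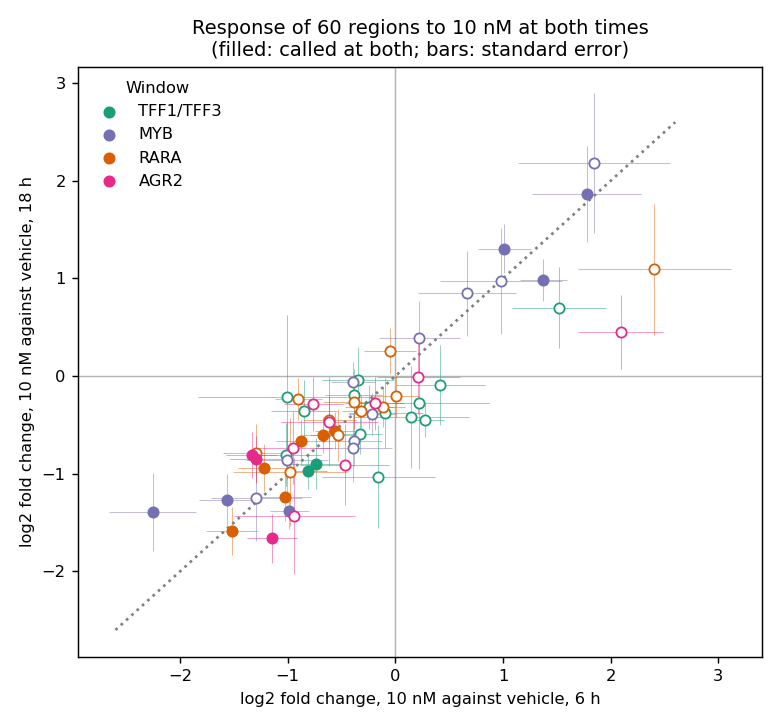
Log2 fold change of 10 nM against vehicle for the 60 regions, 6 h on the x axis and 18 h on the y axis, coloured by window (filled: adjusted p under 0.05 at both times, bars: standard error, dotted line: equal change). Most regions lie in the lower left, with 14 lower at both times and 3 higher at both, all 3 in the MYB window.

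The response to 10 nM was similar in direction at the 2 times. Of the 28 regions called at either time, 14 were lower at both, 3 were higher at both (MYB regions 8, 9 and 16) and 0 were called in opposite directions. Without the 2 libraries that stood apart, 35 were called at either time, 13 lower at both, 4 higher at both and 0 in opposite directions. No matching counts over all regions are given, so whether this overlap is particular to the windows was not tested. The fold changes had the same sign in 53 of 60 regions, for which no share over all regions is given either. Their correlation across the 60 regions was r = 0.87, near the 0.83 over all 132304 tested regions, a description of regions that share libraries. The test of the difference between the times (edgeR) called 0 of the 60 for 10 nM, with 3 at an unadjusted p under 0.05, and 0.00151% of all regions. For 0.1 nM it called 0 of the 60, with 0 at an unadjusted p under 0.05 and a smallest adjusted p that rounds to 1, and 0% of all regions. Between the vehicle groups of the 2 times it called 0 of the 60, with 2 at an unadjusted p under 0.05, and 0% of all regions. DESeq2's Wald test also called 0 members in each of these. A call at one time alone is therefore not shown to be a difference between the times.

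Summed CPM over each window was a description, and no test was run on the sums. The RARA sums were lower with 10 nM at both times. The window's 17 regions together had 346, 354 and 306 CPM in vehicle for 6 h, 313, 316 and 328 CPM at 0.1 nM and 223, 234 and 224 CPM at 10 nM. At 18 h they had 325, 348 and 296 CPM in vehicle, 305, 291 and 256 CPM at 0.1 nM and 247, 239 and 194 CPM at 10 nM. The 10 nM sums lay below all others at both times. The TFF1/TFF3 sums were also lower with 10 nM, at 83.6 ± 7.44 CPM against 100.6 ± 5.26 CPM with vehicle at 6 h and 69.8 ± 4.67 CPM against 100.1 ± 4.01 CPM at 18 h (SD, n = 3 each). The 0.1 nM sums there were 105 ± 6.12 CPM and 98.9 ± 0.528 CPM at the same times.

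The MYB sums of 10 nM and vehicle overlapped at both times, with 85.0 ± 7.51 CPM in vehicle, 74.0 ± 3.35 CPM at 0.1 nM and 81.0 ± 6.75 CPM at 10 nM at 6 h (SD, n = 3 each). The AGR2 sums were 132 ± 27.8 CPM in vehicle, 116 ± 12.4 CPM at 0.1 nM and 89.4 ± 5.26 CPM at 10 nM at 6 h, where 10 nM and vehicle did not overlap. At 18 h they were 112 ± 20.1 CPM in vehicle, 98.3 ± 21.3 CPM at 0.1 nM and 79.5 ± 23.1 CPM at 10 nM, and the groups overlapped. In each 18 h group the AGR2 sum was highest in the replicate with the most reads in total, and how far depth entered was not tested.

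**Figure D5:**
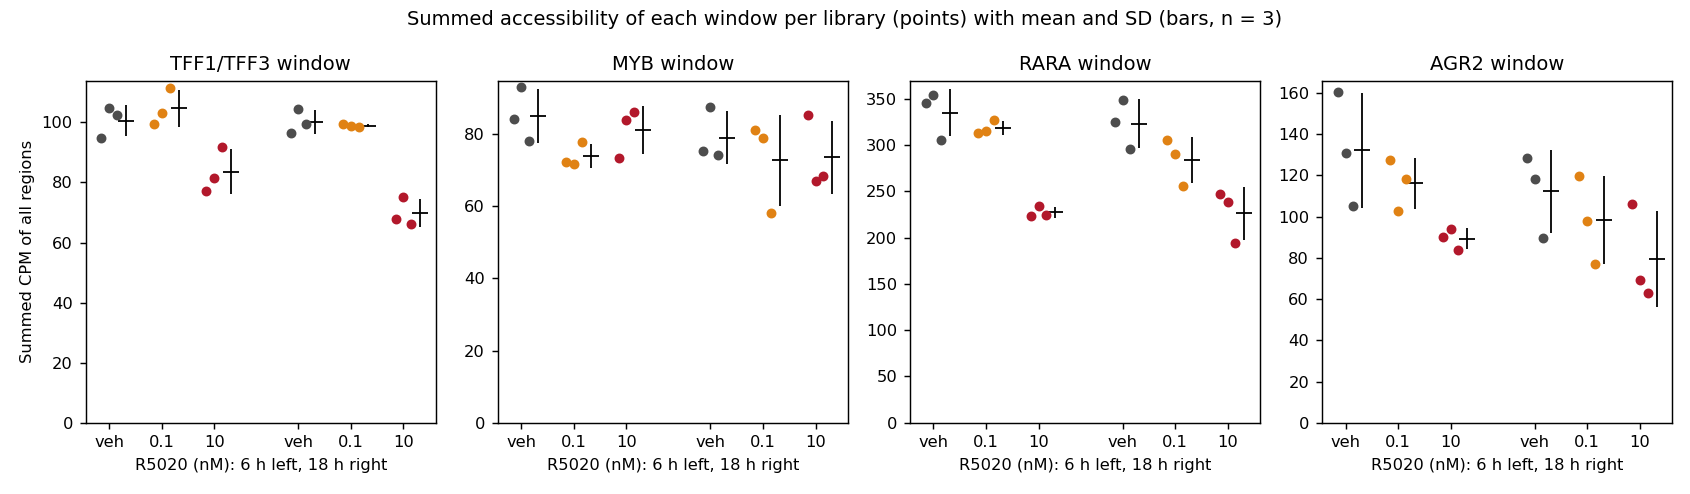
Summed CPM of all regions of a window in each library (points: grey vehicle, orange 0.1 nM, red 10 nM) with the mean and SD of the 3 libraries (bars), by dose from vehicle to 10 nM, at 6 h on the left and 18 h on the right of each panel. RARA sums were 223 to 234 CPM with 10 nM for 6 h against 306 to 354 CPM with vehicle, while the MYB sums of 10 nM and vehicle overlapped.

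The regions whose profile over the 6 group means of log2 CPM was most like that of each window's strongest were often in another window. The strongest RARA region was most like RARA region 11 (r = 0.99) and RARA region 10 (r = 0.98). The strongest TFF1/TFF3 region was most like AGR2 region 9 (r = 0.97) and RARA region 8 (r = 0.96). AGR2 region 1 was most like RARA region 3 (r = 0.98) and RARA region 2 (r = 0.94), and MYB region 16 was most like MYB region 11 (r = 0.89) and MYB region 9 (r = 0.81). Each r rests on 6 group means that come from the same 18 libraries, and it is a description only. Of the 60 regions, 29 were called in at least 1 of the 6 comparisons of doses and vehicle within a time and 31 in none, and 36 in at least 1 without the 2 libraries that stood apart. The matching share of all regions is not given, so these counts alone do not set the windows apart from the table.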

How the data were processed

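The authors deposited 1 table of 18 libraries holding unnormalized read counts. BWA, MACS2 and the hg19 build are named in the submitters' processing notes. Not given in the sources used here are versions, read filters, any Tn5 shift, how regions were merged, and whether starts count from 0 or 1. Columns were matched to samples by name. Nothing in the labels says that replicates came from separate cultures, so p-values reflect only how these libraries spread, which may be technical. Replicate pairs had a chi-square per degree of freedom of 3.28 to 27.8, beyond sampling noise.

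The test was edgeR 4.0.16 (R 4.3.3). Of all regions, 132304 passed filterByExpr at minimum count 10 and minimum total 15, and 300 did not. TMM scaled the libraries, and 1 quasi-likelihood fit gave each group a mean, leaving 12 residual degrees of freedom. The SE is the size of the log2 fold change over the square root of F. CPM uses TMM-scaled totals, and log2 CPM a prior count of 2. Simulated counts were used to test the code. Alternatives were DESeq2 1.42.0 (its size factors and its Wald test), no filter, at least 1 CPM in 3 libraries, the compared groups alone, the replicate number as a block, the share of reads in the 5000 strongest regions as a covariate, and each library left out. Leaving out 2 libraries together was added after seeing the data.

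Same-numbered libraries deviated together from their group means, with every r above 0.1, in 10 nM against 0.1 nM at 18 h (r = 0.60, 0.19 and 0.45) and between the vehicle groups (0.32, 0.12 and 0.45). The pairing comes from these correlations, not the labels. At 18 h r was 0.45, 0.098 and 0.46 for 0.1 nM against vehicle, and 0.36, 0.014 and 0.35 for 10 nM against vehicle. In each 18 h group the total reads and the share in the strongest regions fell from replicate 1 to replicate 3. What part this had in r was not tested.

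The windows, genes and rule for named regions were chosen with earlier results of these data known. Named were, per window, the 2 regions of highest mean CPM, up to 5 called regions of largest change for each dose against vehicle at each time, up to 2 for each comparison between doses, any region called between times, and the 2 regions most like each window's strongest. This gave 32 regions. No hg19 sequence was read; promoters are RefSeq's, of GRCh38.p14.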

Additional observations from a re-analysis of the deposited data

How the results depend on the processing

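Of 52 named calls, 0 changed sign and 28 kept an adjusted p under 0.05 in every alternative; 24 missed it in at least 1, of which 23 in a fit without 1 library. The replicate block and DESeq2's Wald test lost 0 of them, DESeq2 size factors 5, no filter 6, the 1 CPM filter 5, the covariate 9, the compared groups alone 11 and leaving out both libraries that stood apart 4. For 10 nM against vehicle at 18 h the lower count was 9 with the compared groups alone. For 0.1 nM at 6 h the lower count was 0 with the compared groups alone, where 206 of all regions were lower, against 319 in the main fit. For 0.1 nM at 18 h the higher count was 0 with DESeq2 size factors, without a filter and with the compared groups alone, and the lower count was 1 with the covariate. In the same order 2321, 2294 and 1862 of all regions were higher, against 2307 in the main fit. With the covariate 1726 of all were lower, against 923. For 10 nM against 0.1 nM at 18 h the higher count was 0 with the compared groups alone and 0 without both libraries, and the lower count was 11 with the replicate block, 4 with the compared groups alone and 14 without both libraries. Over all regions the compared groups alone called 1677 lower and 4505 higher there, against 5586 and 8822 in the main fit. The replicate block moved no other count by over 1.5 times. The compared groups alone also use fewer libraries and test fewer regions in every comparison, such as 122099 for 10 nM against 0.1 nM at 18 h. In some comparisons they test fewer members too, such as 56 for 0.1 nM against vehicle at 6 h.

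Leaving out each library in turn gave, for 10 nM against vehicle, 4 to 7 higher and 12 to 18 lower regions at 6 h, and 3 to 5 higher and 8 to 16 lower at 18 h. Lower calls over all regions ran from 6477 to 12289 at 6 h and from 6407 to 15261 at 18 h in those fits. For 0.1 nM it gave 0 lower at 6 h and 0 to 1 higher at 18 h, where 70 to 464 of all regions were lower and 957 to 2370 higher. For 10 nM against 0.1 nM it gave 4 to 6 higher and 8 to 12 lower at 6 h, and 0 to 3 higher and 5 to 9 lower at 18 h. Over all regions these fits called 14910 to 21122 higher and 3760 to 6319 lower at 6 h. The ranges at 18 h were 5030 to 9587 higher and 2953 to 6007 lower. Regions under 1 CPM rest on few reads, such as MYB region 11, where the vehicle libraries for 6 h held 0, 8 and 13 reads. Calls of far stronger regions were lost as well, such as TFF1/TFF3 region 8 with a mean of 26.5 CPM and RARA region 12 with 25.1 CPM. The causes of these changes were not tested.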
